A study of Mus musculus with 6 samples.

Results

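Small nucleolar RNA host genes were followed in mouse embryonic stem cells with and without the 3 TET enzymes. The set comprised every probe whose gene name in the scanner files was Snhg1, Snhg3, Snhg5, Snhg6, Snhg7, Snhg8, Snhg11 or Snhg12, which gave 10 of 55681 probes for 8 genes. The genes were chosen on measured values, with the difference between the TKO and WT arrays described below already known, so their values in that contrast are a description and carry no p-value. The tested cells (TKO, 3 arrays) lacked Tet1, Tet2 and Tet3, the dioxygenases that oxidise 5-methylcytosine in DNA, and were derived from the line that served as wild type (WT, 3 arrays), BJ FF2 ES. Dishes of both were grown in parallel in 2i medium over feeder fibroblasts, then freed of feeders and moved to matrigel before RNA was taken, with a dish of its own for each array. The replicates are thus dishes of 1 line and of the cells made from it, and the labels do not say how many knockout clones were used. P-values and intervals measure the spread between these dishes and hold no spread between independent lines. Neither the intervals nor the calls given for the chosen genes take account of how these genes were chosen. Both are given as description and not as tests of a difference.

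A small nucleolar RNA host gene carries small nucleolar RNAs (snoRNAs) in its introns. After splicing the introns are trimmed to snoRNAs, which guide the chemical modification of ribosomal and spliceosomal RNA: box C/D snoRNAs guide ribose methylation and box H/ACA snoRNAs guide pseudouridine formation. The joined exons of many such genes carry only short reading frames and are degraded by nonsense-mediated decay once ribosomes reach a stop codon, and many of the genes begin transcription in a pyrimidine tract, as ribosomal protein genes do. The values below are signals of probes that the array's design names for the host genes, and whether each probe lies in an exon was not determined here.

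The probe sequences are shown because 2 genes had probes that behaved differently and 1 had no probe with signal. Each is the 60-base oligonucleotide of the array, with its place in mm9, the mouse build that the file headers name. An mm9 annotation was not used here, so the exon of each probe is not given.
Snhg6, chr1:9932175-9932234, minus strand: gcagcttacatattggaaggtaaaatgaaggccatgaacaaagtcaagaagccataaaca
Snhg11, chr2:158211554-158211613, plus strand: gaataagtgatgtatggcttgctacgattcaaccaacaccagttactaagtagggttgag
Snhg11, chr2:158206508-158206567, plus strand: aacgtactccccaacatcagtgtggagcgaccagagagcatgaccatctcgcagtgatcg
Snhg12, chr4:131866864-131866922, plus strand: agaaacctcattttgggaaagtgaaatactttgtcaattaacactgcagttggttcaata
Snhg12, no position in the files: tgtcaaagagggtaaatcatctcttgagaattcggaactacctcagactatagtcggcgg
Snhg8, chr3:123210642-123210701, minus strand: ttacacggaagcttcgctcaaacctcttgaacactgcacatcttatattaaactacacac
The second Snhg12 probe and the Snhg8 probe were designed on expressed sequence tags rather than on the named transcript.

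Every value below is the log2 of the processed signal minus that of the array's 75th percentile, so 0 stands for the signal at that percentile, and each probe is compared only with itself. A probe was kept where at least 3 of the 6 arrays put it well above background, and where several probes of a gene were kept, the one brightest on average stands for it. Of the 10 probes, 8 passed, and 7 of the 8 genes were tested among 21558. Of these 7, 6 had TKO arrays all above the WT arrays, and 5 were called in TKO by limma at an adjusted p under 0.05, all of them higher. Over all tested genes 67.6% did not overlap between the groups and 59.7% were called, 30.0% higher and 29.7% lower. The choice of the genes used this contrast, so nothing is read from these shares. The median difference was 0.44 over the 7 genes and -0.01 over all genes. Centring each array on its median in place of its 75th percentile lowers every difference by 0.19 and moves the split of all calls to 3873 higher and 9313 lower. Under it 3 of the 7 genes were called higher, and a difference between 0 and 0.19 in the text below changes sign. Markers of fibroblasts, the feeder cell type, moved with the groups as well (10 of 13 tested called higher in TKO), as did markers of embryonic stem cells (7 of 10 called lower). Their part in the values below was not tested, and more cells of a type and more RNA per cell cannot be told apart in such samples.

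Among the hosts of box H/ACA snoRNAs, Snhg3 stood furthest from WT. Snhg3 hosts the U17 snoRNA, which is needed for early cleavage of the ribosomal RNA precursor. Its processed signal was 13810, 13470 and 14340 intensity units in TKO dishes, against 3769, 4175 and 3852 in WT dishes. On the normalised log2 scale these were 5.08, 5.14 and 5.12 in TKO and 3.36, 3.39 and 3.31 in WT. All TKO dishes lay far above all WT dishes, and the dishes of each group lay close together. The difference was 1.76 ± 0.04 (SE, n = 3 each), or 3.39-fold, with a 95% interval from 1.66 to 1.86. This interval, like those of the other chosen genes below, describes spread between dishes and takes no account of the choice of genes. Snhg3 was the only one of the 7 genes both called and at least 2-fold apart, as were 13.7% of all tested genes. The values of Snhg3 rest on a single probe, and another probe close by on the same strand is given further below.

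Snhg11, a long non-coding RNA known from neurons that hosts H/ACA snoRNAs in human, had 2 probes above background on all 6 arrays. The probe nearer the end of the gene gave 1.54, 1.54 and 1.51 in TKO dishes, against 0.64, 1.02 and 0.84 in WT dishes. The TKO dishes were nearly identical and all above WT, and the spread lay almost entirely among the WT dishes. The difference was 0.70 ± 0.10 (SE, n = 3 each), or 1.62-fold, with a 95% interval from 0.45 to 0.94. The other probe, 5.05 kb upstream, gave -1.70, -1.61 and -1.83 in TKO and -1.91, -1.79 and -2.02 in WT. There the groups overlapped, and the difference was 0.20 ± 0.09 (SE from these 2 groups alone). The larger difference thus came from 1 of the 2 probes, and their mean gave 0.45.

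Snhg7, whose human counterpart hosts H/ACA snoRNAs, was also higher in every TKO dish. It measured 1.59, 1.45 and 1.48 in TKO and 1.02, 1.13 and 1.05 in WT. The difference was 0.44 ± 0.06 (SE, n = 3 each), or 1.36-fold, with a 95% interval from 0.30 to 0.58. The antisense neighbour Snhg7os, measured by a probe on the opposite strand, gave 1.50, 1.69 and 1.59 in TKO and 1.68, 1.66 and 1.66 in WT. Those groups overlapped, with a difference of -0.07 ± 0.06 (adjusted p = 0.315, limma). Snhg7os was named after its value had been seen.

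Snhg12, which in human hosts both H/ACA and C/D snoRNAs, differed little. Its main probe gave 4.05, 3.88 and 3.93 in TKO dishes, against 3.80, 3.81 and 3.86 in WT dishes. The groups did not overlap, but the lowest TKO dish and the highest WT dish were nearly equal. The difference was 0.13 ± 0.06 (SE, n = 3 each), with a 95% interval from -0.01 to 0.27, and it was -0.06 when arrays were centred on their medians. Its second probe was not well above background on any array. The same was true of the only probe for Snhg8, a host of an H/ACA snoRNA in human, which gave -7.38, -6.50 and -6.62 in TKO and -7.27, -7.58 and -6.76 in WT. No fold is given for either, and the files hold no measured level of Snhg8 in these cells.

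Among the hosts of box C/D snoRNAs, Snhg6 and Snhg1 were higher in TKO and Snhg5 was not. Snhg6, host of the U87 snoRNA, gave 6.10, 5.92 and 5.88 in TKO dishes, against 5.26, 5.19 and 5.20 in WT dishes. The lowest TKO dish lay clearly above the highest WT dish. The difference was 0.75 ± 0.07 (SE, n = 3 each), or 1.68-fold, with a 95% interval from 0.58 to 0.92. Snhg1, the U22 host gene and one of the first genes recognised as making stable snoRNAs from introns and unstable RNA from exons, gave 2.90, 2.77 and 2.79 in TKO and 2.45, 2.57 and 2.45 in WT. Its difference was 0.33 ± 0.06 (SE, n = 3 each), or 1.26-fold, with a 95% interval from 0.19 to 0.47. Both groups of Snhg1 spread by about the same amount and did not overlap.

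Snhg5, host of the U50 snoRNA, gave 0.56, 0.46 and 0.58 in TKO dishes and 0.57, 0.56 and 0.51 in WT dishes. The groups overlapped fully, and the difference was -0.01 ± 0.05 (SE, n = 3 each). Its 95% interval ran from -0.13 to 0.10.

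**Figure D1:**
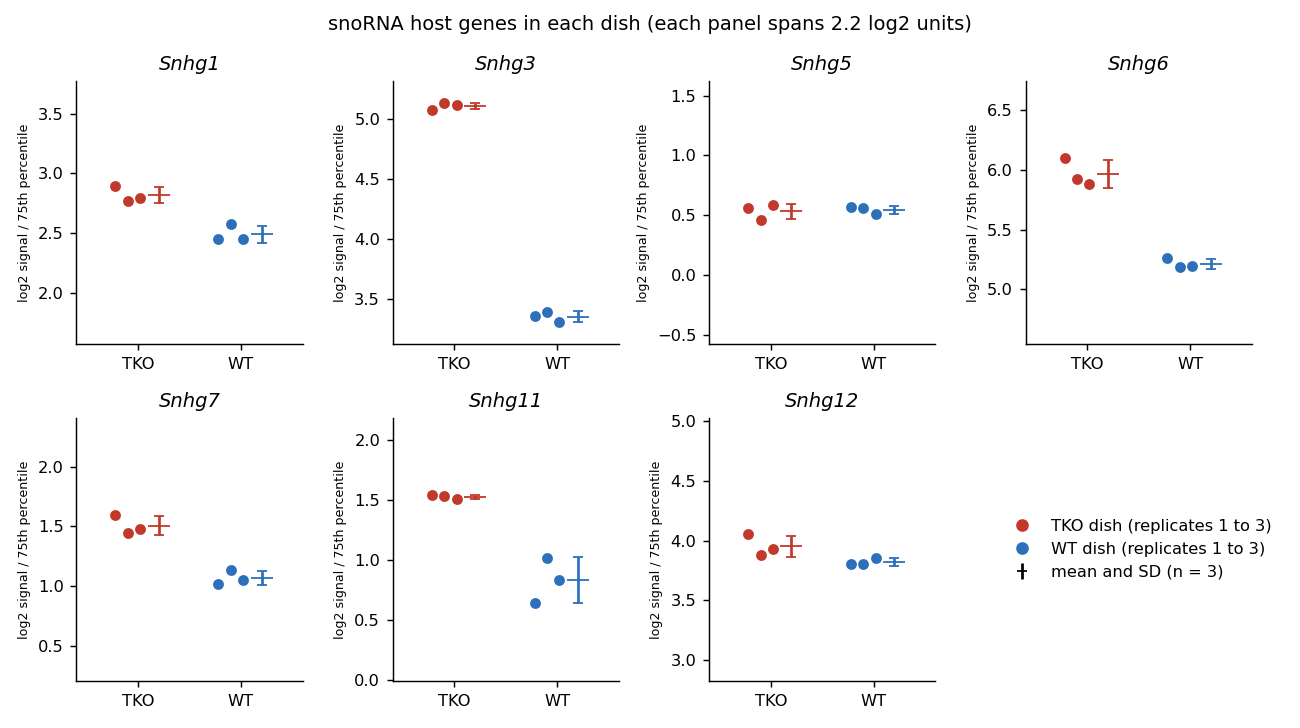
Level of each host gene in each dish (vertical axes, log2 of signal over the array's 75th percentile, all spanning the same number of log2 units), with TKO left of WT, points for replicates 1 to 3 and a cross for mean and SD (n = 3). Snhg3 shows the widest gap (TKO 5.08 to 5.14, WT 3.31 to 3.39), Snhg5 overlaps, the narrow gap of Snhg12 (0.13) turns to -0.06 when arrays are centred on their medians, and Snhg8 is left out because its probe was not well above background.

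The slide held the arrays in 2 rows, with the 3 WT arrays and TKO replicate 1 in the first and TKO replicates 2 and 3 in the second. Within the first row alone the differences were 1.73 for Snhg3, 0.88 for Snhg6, 0.71 for Snhg11 and 0.53 for Snhg7. They were 0.40 for Snhg1, 0.23 for Snhg12 and 0.01 for Snhg5 in the same row. The values for Snhg1, Snhg6, Snhg7 and Snhg12 were thus larger in the row that holds both groups, and TKO replicate 1 was the highest of the TKO dishes for these 4 genes. The spread within groups was ordinary, with an SD from 0.04 for Snhg3 to 0.14 for Snhg11, against a median of 0.08 over all tested genes.

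The other non-coding snoRNA hosts measured were all higher in TKO, except that Snhg17 turned slightly negative with median centring. Of 10 with a probe, 9 were above background, and 9 of 9 were called higher in TKO (limma, adjusted p under 0.05), beside 30.0% of all genes. Their median difference was 0.78. The list was drawn up with results of these data known. In all, 5 of the genes stand in the files under older names. Snhg15, Snhg16 and Snhg20 lie on chromosome 11, as do several called genes of the lists below.

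Gas5, a host of C/D snoRNAs and the textbook case of a non-coding transcript degraded by nonsense-mediated decay, gave 5.69, 5.63 and 5.62 in TKO dishes, against 3.60, 3.53 and 3.55 in WT dishes. It rose by 2.08 ± 0.04 (SE, n = 3 each) by this probe, its brightest (adjusted p = 2.22e-06, limma). The mean of its 3 probes gave 1.09 (adjusted p = 1.23e-05). The 1.76 of Snhg3 rests on 1 probe, so it has no such mean to set beside this one. Snhg18 rose by 1.00 ± 0.08 (adjusted p = 0.000145), Snhg16 by 0.79 ± 0.05 (adjusted p = 9.1e-05) and Zfas1 by 0.78 ± 0.10 (adjusted p = 0.00102). All 3 had every TKO dish above every WT dish. Snhg15 rose by 0.58 ± 0.04 (adjusted p = 0.000113), Snhg10 by 0.51 ± 0.07 (adjusted p = 0.0014) and Dancr, an RNA named for holding back differentiation, by 0.47 ± 0.05 (adjusted p = 0.000679).

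Of the other non-coding hosts, the calls of Snhg20 and Snhg17 were the least secure. Snhg20 gave -3.40, -3.49 and -2.76 in TKO dishes and -3.93, -3.93 and -4.16 in WT dishes, a rise of 0.79 ± 0.21 (adjusted p = 0.0195), and 0.31 with normexp background correction (adjusted p = 0.00838). TKO replicate 3 lay well above the other TKO dishes, and leaving out WT replicate 3 ended the call (0.71, adjusted p = 0.0646). Snhg17 gave 0.63, 0.69 and 0.59 in TKO and 0.44, 0.49 and 0.53 in WT, a rise of 0.15 ± 0.05 (adjusted p = 0.0326) that turned to -0.04 when arrays were centred on their medians. Leaving out WT replicate 1 (0.13, adjusted p = 0.0943), WT replicate 2 (0.15, adjusted p = 0.0792), TKO replicate 1 (0.15, adjusted p = 0.067) or TKO replicate 2 (0.12, adjusted p = 0.0955) also ended it. The call was lost too with the replicate block (adjusted p = 0.0855), with array row as a block (0.144), in the first row alone (0.143), without a filter (0.0933) and in the deposited table (0.0671). Snhg9 had a probe that was not well above background on any array.

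**Figure D2:**
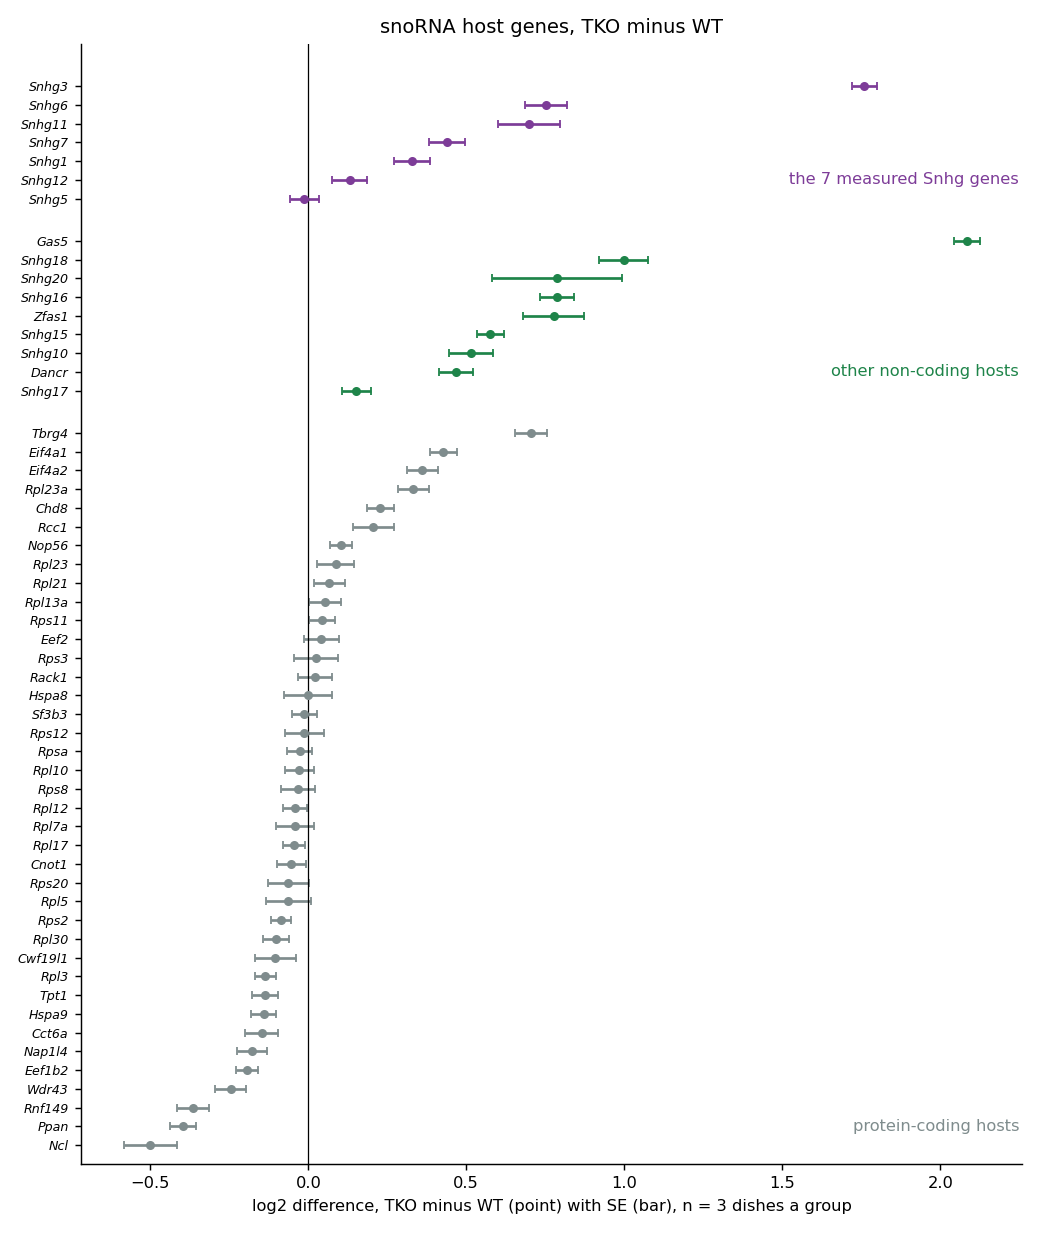
Difference between TKO and WT (horizontal axis, log2, points with SE, n = 3 dishes a group) for the 7 measured Snhg genes, the 9 other non-coding hosts and the 39 protein-coding hosts. The non-coding hosts reach 2.08 for the brightest probe of Gas5 (1.09 for the mean of its 3 probes) and 1.76 for Snhg3, the protein-coding hosts run from -0.50 to 0.70 around 0, and Snhg12 and Snhg17, at 0.13 and 0.15, change sign when arrays are centred on their medians.

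Protein-coding genes also host snoRNAs, mostly ribosomal protein and translation factor genes. Of 39 tested, 7 were called higher and 9 lower in TKO, and 23 were not called, so that 41% were called beside 59.7% of all genes. The median difference was -0.03. Tbrg4, a mitochondrial RNA-processing factor, rose by 0.70 ± 0.05 (adjusted p = 0.000113, limma). The translation initiation helicases Eif4a1 and Eif4a2 rose by 0.43 ± 0.04 and 0.36 ± 0.05 (adjusted p = 0.000373 and 0.00129). Ncl, encoding nucleolin, fell by 0.50 ± 0.08 (adjusted p = 0.00334), Ppan by 0.40 ± 0.04 (adjusted p = 0.00047) and Rnf149 by 0.37 ± 0.05 (adjusted p = 0.00156). The count called lower was 5 without WT replicate 1 and 5 without TKO replicate 2. With median centring 2 were called higher and 24 lower.

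Where a gene had several probes, they did not move alike. The 3 Gas5 probes, on the plus strand of chromosome 1 (mm9), are printed in the order of transcription because their differences were far apart.
Gas5 first, chr1:162966369-162966428: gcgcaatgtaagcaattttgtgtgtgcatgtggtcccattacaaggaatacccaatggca
Gas5 second, chr1:162967350-162967409: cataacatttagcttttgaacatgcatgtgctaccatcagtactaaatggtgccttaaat
Gas5 last, chr1:162968608-162968667: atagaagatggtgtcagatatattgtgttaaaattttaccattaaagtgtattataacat
The first gave 1.30, 1.45 and 1.45 in TKO dishes and 0.29, 0.38 and 0.40 in WT dishes, a difference of 1.04 ± 0.06. The second gave 2.43, 2.42 and 2.54 in TKO and 2.23, 2.44 and 2.32 in WT, where the groups overlapped and the difference was 0.14 ± 0.07. The last is the one described above. Thus the outer probes both stood higher in TKO, by different amounts, while the middle one, 0.98 kb from the first, did not separate the groups. The 2 probes of Snhg16, 0.31 kb apart, gave 0.50 ± 0.06 for the first and 0.79 ± 0.05 for the second (SE from the 2 groups alone).

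**Figure D3:**
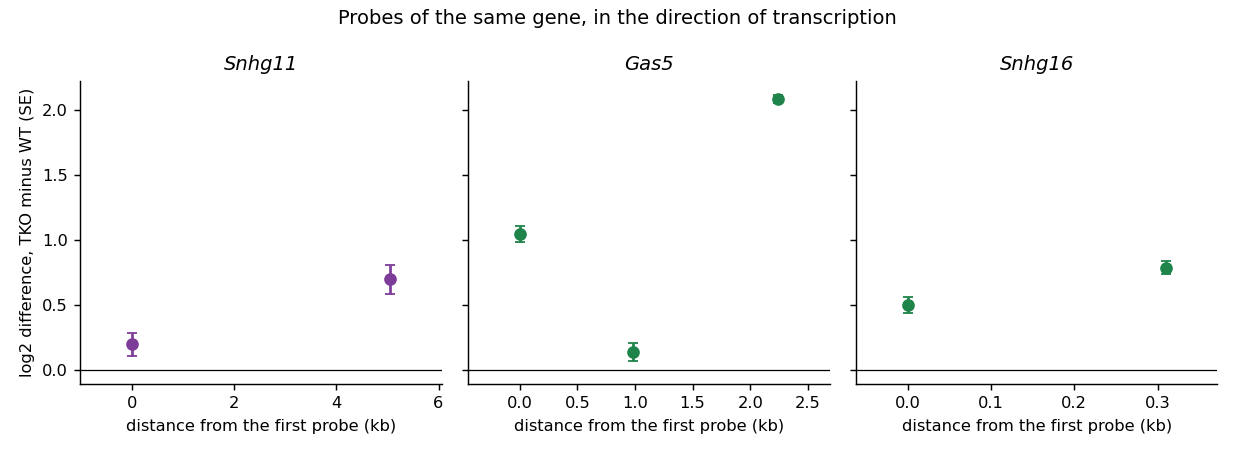
Difference between TKO and WT (vertical axis, log2, with SE, n = 3 dishes a group) for every probe above background of Snhg11, Gas5 and Snhg16, against its distance in kb from the gene's first probe in the direction of transcription. The second probe of Snhg11 is at 0.70 and the first at 0.20, and the middle probe of Gas5 is at 0.14 between neighbours at 1.04 and 2.08. The value at 0.14 changes sign when arrays are centred on their medians.

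The array also held probes named for 2 H/ACA snoRNAs, given here after their values had been seen. Whether such a probe reads the snoRNA or the longer RNA around it was not tested. Snora47 gave -3.52, -3.44 and -3.58 in TKO dishes, against -2.88, -2.55 and -2.32 in WT dishes. Snora74a gave 1.07, 1.11 and 1.04 in TKO and 1.59, 1.67 and 1.85 in WT. Both were lower in every TKO dish, Snora47 having decreased by 0.93 ± 0.14 (adjusted p = 0.00246, limma) and Snora74a by 0.63 ± 0.07 (adjusted p = 0.000702). Neither is known as a product of one of the 8 genes. Whether either comes from another non-coding host, with or without a probe here, was not determined.

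The proteins that bind snoRNAs moved in both directions. Of 8 tested core proteins of the snoRNA particles, 3 were called higher and 3 lower, so that 75% were called beside 59.7% of all genes. The median was -0.02. Nhp2 and Gar1 of the H/ACA particle rose by 0.63 ± 0.05 and 0.25 ± 0.04 (adjusted p = 0.000119 and 0.00162, limma). Dkc1, its pseudouridine synthase, fell by 0.26 ± 0.04 (adjusted p = 0.00149). Nop56 of the C/D particle rose by 0.10 ± 0.03 (adjusted p = 0.0438), a value that turned to -0.09 with median centring, while Nop58 and Snu13 fell by 0.31 ± 0.05 and 0.21 ± 0.04 (adjusted p = 0.0025 and 0.00722). Partners of the same particle thus stood on opposite sides. With median centring 1 was called higher and 5 lower.

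Of 17 factors that assemble or process these particles, 8 were called higher and 2 lower, so that 58.8% were called, close to the 59.7% of all genes. The median was 0.12. Coil, the marker protein of Cajal bodies, rose by 0.82 ± 0.07 (adjusted p = 0.00026, limma), the exonuclease Parn by 0.39 ± 0.03 (adjusted p = 0.000236) and Znhit3 by 0.36 ± 0.06 (adjusted p = 0.0027). The H/ACA chaperones Shq1 and Naf1 fell by 0.30 ± 0.04 and 0.22 ± 0.04 (adjusted p = 0.00172 and 0.00576). The count called higher was 5 without WT replicate 2, 5 without TKO replicate 2 and 5 without TKO replicate 3. With median centring the counts were 2 higher and 4 lower.

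The factors of nonsense-mediated decay, the pathway that degrades the exon RNA of many host genes, differed in both directions. Of 20 tested, 12 were called higher and 3 lower, so that 75% were called beside 59.7% of all genes. The median was 0.21. The exon junction protein Casc3 rose by 1.03 ± 0.05 (adjusted p = 2.01e-05, limma), the helicase Dhx34 by 1.02 ± 0.04 (adjusted p = 1.55e-05) and Smg9, a partner of the kinase Smg1, by 0.77 ± 0.05 (adjusted p = 5.44e-05). Upf3a fell by 0.36 ± 0.04, Nbas by 0.33 ± 0.04 and the release factor Etf1 by 0.33 ± 0.04 (adjusted p = 0.000464, 0.00076 and 0.000909). With median centring 7 were called higher and 4 lower. Casc3, Smg6, Smg8 and Eif4a3 of this list, all called higher, lie on chromosome 11. So do Nhp2, Coil, Znhit3, Tbrg4, Eif4a1, Snhg15, Snhg16 and Snhg20, which rose as given above. Rpl23a and Pes1 there rose by 0.33 ± 0.05 and 0.37 ± 0.07 (adjusted p = 0.00189 and 0.00477, limma). The fibroblast marker Col1a1, also there, rose by 0.58 ± 0.05 (adjusted p = 0.000172). On the same chromosome Upp1 was called lower, and Rack1, Rpl23, Npm1, Ubtf and the neuronal marker Rbfox3 were not called. Whether chromosome 11 differed as a whole was not tested here.

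Other transcripts known as targets of this decay did not share one direction. Of 10 tested, 5 were called higher and 3 lower, so that 80% were called beside 59.7% of all genes. The median was -0.03. Gas5 belongs to this list too, with 2.08 by its brightest probe and 1.09 by the mean of its 3 probes. Gadd45a, a stress-induced growth arrest gene, rose by 1.099 ± 0.048 (adjusted p = 1.94e-05, limma), and the stress transcription factor Atf4 rose by 0.51 ± 0.03 (adjusted p = 8.89e-05). Ddit3, a target of Atf4, fell by 0.74 ± 0.06 (adjusted p = 0.000145), Upp1 by 0.37 ± 0.07 (adjusted p = 0.00498) and Tbl2 by 0.35 ± 0.09 (adjusted p = 0.016). The count called higher was 3 without WT replicate 3. With median centring the counts were 3 higher and 5 lower.

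Of 30 tested genes of RNA polymerase I and ribosome biogenesis in the nucleolus, 11 were called higher and 7 lower, so that 60% were called, close to the 59.7% of all genes. The median was 0.07. The RNA helicase Ddx21 rose by 1.08 ± 0.07 (adjusted p = 6.59e-05, limma), and Imp4 and Taf1b rose by 0.56 ± 0.05 and 0.50 ± 0.10 (adjusted p = 0.000209 and 0.00647). Mphosph10 of the small-subunit processome fell by 0.54 ± 0.05 (adjusted p = 0.000423) and Rrp9, a protein of the U3 snoRNA particle, by 0.30 ± 0.06 (adjusted p = 0.00766). The fall of Ncl is given above. With median centring 3 were called higher and 11 lower.

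The median of the genes around each of the 7 hosts lay below the host itself. Snhg6 was 0.75 higher while the 15 tested genes within 2 Mb of its probe had a median of -0.74. For Snhg5 the host was at -0.01 and the 38 genes around it had a median of -0.39. The regional medians were 0.03 for Snhg3 (99 genes), 0.04 for Snhg11 (55 genes), -0.04 for Snhg7 (108 genes) and -0.05 for Snhg1 (99 genes). The Snhg3 and Snhg12 probes lie 41.1 kb apart on chromosome 4, so they share nearly all of their surroundings, and still differed by 1.76 against 0.13.

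**Figure D4:**
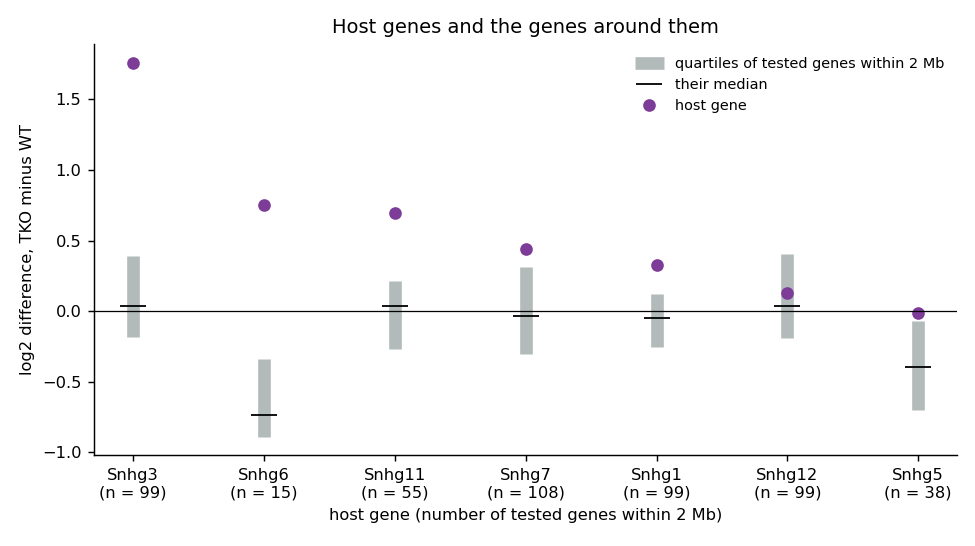
Difference between TKO and WT (vertical axis, log2) for each host gene (point) and for the tested genes within 2 Mb of its probe (bar from lower to upper quartile, line at the median, number of genes under each name). Snhg3, Snhg6, Snhg7, Snhg11, Snhg1 and Snhg5 lie above the bar of their region, and the regional medians run from -0.74 to 0.04, while Snhg12 lies within its bar and changes sign when arrays are centred on their medians, which moves every point and bar down alike.

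Within 100 kb of the probes lay 27 tested genes with a gene symbol, clone and predicted names not counted. Of these, 4 were called higher, 11 lower and 12 neither, beside 30.0% higher and 29.7% lower over all tested genes. Called probes left out of this count went both ways, and several rises among them are given below. Beside Snhg6, Tcf24 fell by 2.27 ± 0.10 (adjusted p = 2.06e-05, limma), Cops5, a subunit of the COP9 signalosome, by 0.63 ± 0.04 (adjusted p = 8.75e-05) and the kinase gene Sgk3 by 0.37 ± 0.04 (adjusted p = 0.000351). Beside Snhg7, Dipk1b fell by 0.85 ± 0.06 (adjusted p = 0.000108) and the acyltransferase gene Agpat2 by 0.31 ± 0.04 (adjusted p = 0.00123). Egfl7 rose by 0.14 ± 0.04 (adjusted p = 0.0211), a value that turned to -0.06 with median centring. Snhg6 thus stood above WT next to genes that stood below it. Of the 4 tested neighbours of Snhg7 with a gene symbol, 2 were called lower, 1 higher and 1 neither.

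Between Snhg3 and Snhg12 lies Rcc1, the exchange factor of the GTPase Ran and itself a host of snoRNAs in human, which rose by 0.21 ± 0.06 (adjusted p = 0.0359, limma). Trnau1ap, a factor of selenocysteine transfer RNA whose probe lies 0.8 kb from that of Snhg12, fell by 0.23 ± 0.04 (adjusted p = 0.00462). Gmeb1 rose by 0.33 ± 0.04 (adjusted p = 0.000899). Phactr4, 3.8 kb from the Snhg3 probe, gave 0.10 ± 0.06 (adjusted p = 0.211). A probe without a gene symbol, 0.2 kb from the Snhg3 probe and on the same minus strand, gave 0.38 ± 0.10 (adjusted p = 0.0213). The interval it is named for covers the Snhg3 probe, and whether both read the same RNA was not determined. All of these values lay well below the 1.76 of Snhg3.

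Near Snhg1, Tmem179b fell by 0.55 ± 0.05, Zbtb3 by 0.35 ± 0.05 and Stx5a by 0.25 ± 0.06 (adjusted p = 0.000256, 0.00167 and 0.0132, limma), and the other 8 neighbours with a gene symbol were not called. A transcript there known only by a clone name, 1700023D09Rik, 32.1 kb away, rose by 0.35 ± 0.11 (adjusted p = 0.0399). Slc3a2, the heavy chain of amino acid transporters, gave -0.07 ± 0.03 there (adjusted p = 0.118). Near Snhg5, Zfp949 fell by 0.33 ± 0.08 and the RNA-binding protein gene Syncrip by 0.28 ± 0.04 (adjusted p = 0.012 and 0.00266), and the clone-named 9430037G07Rik, 73.0 kb away, fell by 1.99 ± 0.18 (adjusted p = 0.000271). The only neighbour of Snhg11 with a gene symbol was Snhg17, 26.4 kb away. Of 4 probes without a symbol near Snhg11, 3 on the minus strand, 28.3 to 31.4 kb away, rose by 0.69 ± 0.18, 0.27 ± 0.05 and 0.39 ± 0.06 (adjusted p = 0.0174, 0.0042 and 0.00182), and 1 on the plus strand gave 0.08 ± 0.11 (adjusted p = 0.526).

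The starts of the genes were read from RefSeq promoter windows (GRCm38.p6), which matched 7 of the 8 genes and not Snhg6. They are shown because the class is known for pyrimidine tracts at the start and because the TET enzymes act on methylated CpG. Each line gives, on the transcribed strand, the 40 bases before the annotated start and 20 from it. Capitals mark a run that begins with C and goes on with at least 4 C or T, beginning within 10 bases of the start, and TATAAA in the bases before the start, both searched on the transcribed strand only.
Snhg3, chr4:132353667-132353726, minus strand: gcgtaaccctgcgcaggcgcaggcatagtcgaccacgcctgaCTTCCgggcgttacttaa
Snhg5, chr9:88522878-88522937, minus strand: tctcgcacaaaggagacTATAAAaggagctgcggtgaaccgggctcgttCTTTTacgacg
Snhg7, chr2:26640225-26640284, minus strand: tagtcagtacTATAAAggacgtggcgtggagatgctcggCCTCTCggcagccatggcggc
Snhg8, chr3:123508317-123508376, minus strand: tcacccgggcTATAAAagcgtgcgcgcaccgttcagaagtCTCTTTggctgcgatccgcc
Snhg12, chr4:132308638-132308697, plus strand: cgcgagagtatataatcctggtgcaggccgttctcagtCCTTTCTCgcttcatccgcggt
Snhg1, chr19:8723447-8723506, plus strand: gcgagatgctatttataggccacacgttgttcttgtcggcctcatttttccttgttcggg
Snhg11, chr2:158375673-158375732, plus strand: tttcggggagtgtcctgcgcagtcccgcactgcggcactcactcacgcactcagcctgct
A C at the annotated start itself, followed by at least 4 C or T, stood in Snhg7 and Snhg8, 2 of 7 genes, against 2.5% of all 32851 windows. Such a run began within 10 bases of the start, on either side, in 5 of 7, against 30.7%. TATAAA, a motif added after the windows had been read, stood in 3 of 7 (Snhg5, Snhg7 and Snhg8), against 2.3%. The 300-base windows held from 16 CpG in Snhg3 to 36 in Snhg5, against a median of 7 and quartiles of 3 and 20 over all windows. Snhg3, with the widest gap between the groups, and Snhg5, with none, had the fewest and the most CpG of these 7. The genes between them did not keep that order. Snhg12 had 18 CpG and a difference of 0.13, Snhg7 20 and 0.44, Snhg11 21 and 0.70, and Snhg1 25 and 0.33. These are descriptions of sequence and no binding or methylation was measured.

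The genes whose profile over the 6 arrays lay nearest to that of Snhg3, each gene taken relative to its own mean, were Map7d3, Ttc8 and Ccdc92b, with distances of 0.0835, 0.0946 and 0.104 on the log2 scale among 14322 genes with a symbol. Their differences between TKO and WT were 1.76, 1.71 and 1.73. For Snhg5, the lowest of the 7, the nearest were Man2a1, Phpt1 and Cep41, with distances of 0.0398, 0.045 and 0.0487. Those 3 had differences of -0.01, -0.02 and -0.03. Both genes were taken for their difference and spread little within groups, so a near profile mostly repeats a like difference. Shared control was not tested.

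The targeted genes and markers set the frame for these values. Tet1 fell by 1.37 ± 0.04 and Tet2 by 2.93 ± 0.05 (adjusted p = 6.86e-06 and 1.98e-06, limma), while another Tet2 probe above background on all 6 arrays gave -0.43, and the probe used for Tet3 gave -0.24 ± 0.10 (adjusted p = 0.0842). Which exons were altered is not given in the labels, so a probe outside them checks nothing. All 10 markers of embryonic stem cells were well above background on all arrays, and 1 was called higher and 7 lower in TKO. Zfp42 fell by 4.07 ± 0.05, Klf4 by 1.06 ± 0.04 and Tdgf1 by 1.05 ± 0.04 (adjusted p = 1.09e-06, 1.08e-05 and 1.46e-05, limma). Fgf4 rose by 0.46 ± 0.05 (adjusted p = 0.000463), and Utf1 and Dppa5a, the brightest of the 10, were not called. The summed linear level of the 10 ran from 738 to 802 in TKO and from 989 to 1063 in WT. That gap owes much to Zfp42 alone, whose mean log2 value was 7.49 in WT and 3.42 in TKO. Of 13 tested fibroblast markers, 10 were called higher and 1 lower, and their summed linear level ran from 83.2 to 85.9 times the 75th percentile in TKO and from 52.3 to 53.8 in WT. Acta2 rose by 1.20 ± 0.06 and Tagln by 0.97 ± 0.04 (adjusted p = 2.88e-05 and 1.41e-05), while Pdgfrb fell by 2.26 ± 0.15 (adjusted p = 8.44e-05). The remaining marker, Lum, was not kept by the filter. Of 9 tested neuronal markers 3 were called higher and 2 lower, with a summed level from 45.2 to 45.8 in TKO and from 56.4 to 58.8 in WT. That sum is weighted to the brightest probe, Stmn2, which fell by 0.54 ± 0.04 (adjusted p = 0.000113, limma). The median difference of the 9 was 0.17. Beside these marker counts stand 30.0% called higher and 29.7% lower over all tested genes.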

How the data were processed

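RNA of 6 mouse embryonic stem cell dishes was measured on one-colour Agilent arrays, all on 1 slide and 1 scan, with Agilent Feature Extraction 11.5.1.1 per the submitters' processing notes. The deposited processed signal, mean signal and background are intensity values not normalised between arrays, and the processed signal was background-subtracted, per the file headers. The deposited flags of each spot are 0 or 1 and serve as another unit (other). A further table that the authors deposited holds log2 values. Every column equalled the log2 processed signal plus a constant (r = 1 across probes), with column medians of -3.89, -3.72 and -3.81 for TKO and -3.96, -3.95 and -4.02 for WT, a 75th percentile of 0.01, and its centring not stated in the sources used here.

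Control and outlier spots were left out, spots of a probe averaged, and log2 signals centred on each array's 75th percentile (366.9 to 412.9 intensity units). The share of spots well above background ran from 51.9% to 58.5%, 0 spots were saturated, and the number of arrays limits the precision. That share was lowest in TKO replicates 2 and 3 (51.9% and 52.2%), the arrays of the second row. They also had the most outlier spots (160 and 150, against 100 to 104). The SD of their negative controls was 14.9 and 9.8 intensity units, against 3.4 to 5.7 on the other arrays. Groups came from the sample titles. TKO and WT were compared with limma 3.58.1 (lmFit, eBayes) in R 4.3.3, two-sided, with Benjamini-Hochberg adjustment over 21558 genes. The code was tested on simulated data. Correlations across genes were 0.994 to 0.995 within TKO, 0.997 to 0.9975 within WT and 0.9634 to 0.9669 between groups.

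The genes, lists and tests were chosen with earlier results of these data known. Named were all probes of the 8 genes, up to 3 called rises and falls of each list, every other non-coding host, genes within 100 kb, the 3 nearest profiles of the highest and lowest gene, and the Tet genes. Listed genes on chromosome 11 were named as well. Alternatives were normexp with an offset of 50, quantile normalisation, median centring, 2 other filters, the mean of a gene's probes, the deposited table, replicate number or array row as a block, the first row alone and leaving out each array. Replicate numbers of TKO and WT did not pair (r = -0.07, -0.02 and 0.01 between same-numbered arrays). The probe sequence of Snhg3 is not reported here.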

Additional observations from a re-analysis of the deposited data

How the results depend on the processing

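Of the 7 genes, Snhg3 (1.57 to 1.78), Snhg6 (0.56 to 0.88), Snhg11 (0.45 to 0.79), Snhg7 (0.24 to 0.53) and Snhg1 (0.13 to 0.40) stayed above 0 under all 16 alternatives, while Snhg12 (-0.06 to 0.23) and Snhg5 (-0.21 to 0.02) took both signs. The 0.23 of Snhg12 came with array row as a block and in the first row alone, where the difference rests on TKO replicate 1. With each array centred on its median, which moved the median of all genes to -0.20 and the higher share of calls to 29.4% from 50.3%, 3873 genes and 3 of the 7 were called higher. It gave 2 higher and 24 lower protein-coding hosts, 1 and 5 core proteins, 2 and 4 assembly factors, 3 and 5 decay targets, 3 and 11 polymerase I genes, 7 higher decay factors and 5 higher fibroblast markers, and Snhg17 at -0.0433. Normexp and the filter on all arrays each gave 5 lower decay targets. Without a filter 5 protein-coding hosts were lower, and 5 assembly factors and 3 decay targets higher. The mean of a gene's probes gave 11 higher protein-coding hosts. Blocking on array row and using the first row alone each gave 4 lower protein-coding hosts with 5 higher and 1 lower assembly factors, and the first row alone 7 higher polymerase I genes. With the replicate block, which the pairing check does not call for, 5883 genes were higher and 5734 lower, 5 assembly factors and 3 decay targets were higher and 7 of 9 other non-coding hosts kept their call. Leaving out 1 array gave 5 to 10 lower protein-coding hosts, 5 to 7 higher assembly factors and 3 to 5 higher decay targets. Snhg20 lost its call with quantile normalisation, both blocks and without WT replicate 3 (adjusted p 0.0535, 0.0575, 0.167 and 0.0646). The cause of these changes was not tested. Snhg17 lost its call under both blocks too. Snhg20 gave 0.31 with normexp and Gas5 1.09 with the mean of its probes. Snhg8, whose only probe was not above background, has no value.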
